A study of Mus musculus with 18 samples.

Results

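The mitochondrial genome encodes core subunits of the respiratory chain, and 9 of its genes were chosen here by symbol: mt-Nd1, mt-Nd2, mt-Nd4 and mt-Nd5 of complex I, mt-Cytb of complex III, mt-Co1, mt-Co2 and mt-Co3 of complex IV, and mt-Atp6 of the ATP synthase. In the table of 21380 genes, 6 of the 9 had a row and all 6 passed the filter on low values (mt-Nd1, mt-Nd2, mt-Co1, mt-Nd4, mt-Nd5 and mt-Cytb). The other 3, mt-Co2, mt-Co3 and mt-Atp6, are not analysed here. RNA came from mouse bone marrow-derived macrophages of 3 wild-type (WT) animals and 3 animals with a knockout (KO) of Ldha. Marrow cells were grown for 7 days with macrophage colony-stimulating factor at 30 ng/mL and 15% serum. Cells of each animal were then left untreated, given interferon-gamma (IFN-gamma) for 24 h or given interleukin 4 (IL-4) for 24 h, which made 18 libraries in 6 groups of 3. The sources used here give no allele, strain, sex or age for the animals.

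Mitochondrial DNA is transcribed from both strands as long RNAs that are cut at the tRNAs between the genes, so the mRNAs and the rRNAs of a strand start from shared precursors, and their steady levels then depend on how fast each is processed and degraded. The proteins are made on mitochondrial ribosomes and are joined with many subunits encoded in the nucleus. Ldha encodes the enzyme that turns pyruvate into lactate. IFN-gamma is known to move macrophages towards glycolysis, and IL-4 towards oxidative metabolism.

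All 6 genes measured lie on the same strand of the mitochondrial genome (GRCm38, GENCODE M21), each as 1 exon without an intron: mt-Nd1 at chrM:2751-3707, mt-Nd2 at chrM:3914-4951, mt-Co1 at chrM:5328-6872, mt-Nd4 at chrM:10167-11544, mt-Nd5 at chrM:11742-13565 and mt-Cytb at chrM:14145-15288. The last 30 bases of each gene, as annotated, are shown. The libraries were made after poly(A) selection, which catches a transcript by its tail. Where the tail of each transcript begins was not measured. Capitals mark the stop codon, or the part of it that the gene encodes.
mt-Nd1: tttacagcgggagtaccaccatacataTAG
mt-Nd2: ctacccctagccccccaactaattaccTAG
mt-Co1: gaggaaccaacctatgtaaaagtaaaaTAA
mt-Nd4: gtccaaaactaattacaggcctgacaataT
mt-Nd5: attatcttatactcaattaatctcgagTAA
mt-Cytb: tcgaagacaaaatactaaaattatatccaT
In mt-Nd4 and mt-Cytb the gene ends on a lone T, and the poly(A) tail is known to complete the stop codon of such transcripts. On the opposite strand, mt-Nd6 (chrM:13552-14070), a further complex I gene, overlaps the last 14 bases of mt-Nd5. It ends as follows, 5′ to 3′ on its own strand, again with the stop codon in capitals.
mt-Nd6: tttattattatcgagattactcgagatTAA

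Some of these genes have close copies in the nucleus, pseudogenes that never make the protein. A search of nuclear transcript models found the whole of mt-Co1 at 97.6% identity in Gm13340 on chromosome 2. Its last 483 bases, 31.3% of the gene, were also in Gm29216 on chromosome 1 with 1 substitution, A1066T, counted from the first base of mt-Co1, with the base of mt-Co1 first. The first 876 bases of mt-Nd4, 63.6% of the gene, were in Gm28439 without a mismatch. No copy of at least 95% identity was found for mt-Nd1 or mt-Cytb, and the copies of mt-Nd2 and mt-Nd5 covered 49.1% and 52.3% of the gene, with none of at least 99%. The 3 genes without values, mt-Co2, mt-Co3 and mt-Atp6, matched Gm28661, Gm28437 and Gm10925 without a mismatch over 99.6%, 99.9% and 99.6% of their length, and these nuclear copies stood at no more than 3.62 normalized counts in any library. mt-Nd3, a further complex I gene, has a row and matched Gm28438 at 99.71% identity over 99.1% of its length. It stood at no more than 4.376 normalized counts in any library, and Gm28438 at no more than 2.36, so hardly any reads were counted in either place. The sources used here do not say how reads that map to several places were counted, and this was not tested. The levels of mt-Co1 and mt-Nd4 against the other genes are thus uncertain. They give no strand setting for the counting either. Reads from mt-Nd5 and from mt-Nd6 thus cannot be told apart where the genes overlap, and reads elsewhere in mt-Nd6 may come from either strand.

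Libraries held 9.77 to 49.5 M (mega) reads in genes, with a median of 30.9 M. Values are normalized counts, that is, reads divided by 1 size factor per library, and the lowest value of a member in any library was 7738, so counting error was small beside the spread between animals. Ldha stood at 2128 to 2591 normalized counts in untreated KO cells and at 10712 to 12204 in WT. Lyz2, the lysozyme gene of macrophages, stood at 688.9 to 873.1 in untreated KO cells and at 571538 to 700319 in WT, so loss of Ldha and loss of Lyz2 cannot be told apart. All 7 macrophage markers were present in all libraries. Their sum overlapped between genotypes in untreated cells (242959 to 254600.5 in WT and 233608 to 262596 in KO). It was lower in KO without overlap with IFN-gamma (203470.5 to 218438 against 244614 to 271666) and with IL-4 (180780.5 to 201596 against 224072 to 244128), and the part of this in the results was not tested. The library of WT with IFN-gamma, replicate 1, stood apart in the genes described here. Its mean log2 level over the 6 genes was 0.75 below replicate 2 and 0.65 below replicate 3, which differed from each other by 0.10. The WT IL-4 library of replicate 2 was the shallowest, with 9.77 M reads.

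In untreated WT cells, mt-Co1, the catalytic subunit of cytochrome c oxidase, gave 54.3% ± 0.901 (SD, n = 3) of the summed normalized counts of the 6 genes. Per kb of gene, its level was 166174 ± 5273 normalized counts (SD, n = 3). It was followed by mt-Nd1 at 61674 ± 1055 per kb and mt-Cytb at 46349 ± 3764 per kb. Next came mt-Nd2 at 27315 ± 1375 and mt-Nd5 at 27292 ± 1157 per kb, whose libraries overlapped. Over its full length, mt-Nd4 was lowest at 18577 ± 1268. Neighbouring genes on 1 precursor thus differed in level, and mt-Nd1 and mt-Nd2, which lie beside each other, did not overlap in any library. Over the 502 bases of mt-Nd4 without a nuclear copy of at least 99% identity, its level would be 50994 ± 3481 per kb, which overlaps mt-Cytb. Over the 1062 such bases of mt-Co1 the level would be 241750.5 ± 7671 per kb, so mt-Co1 led the order with either length.

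**Figure D1:**
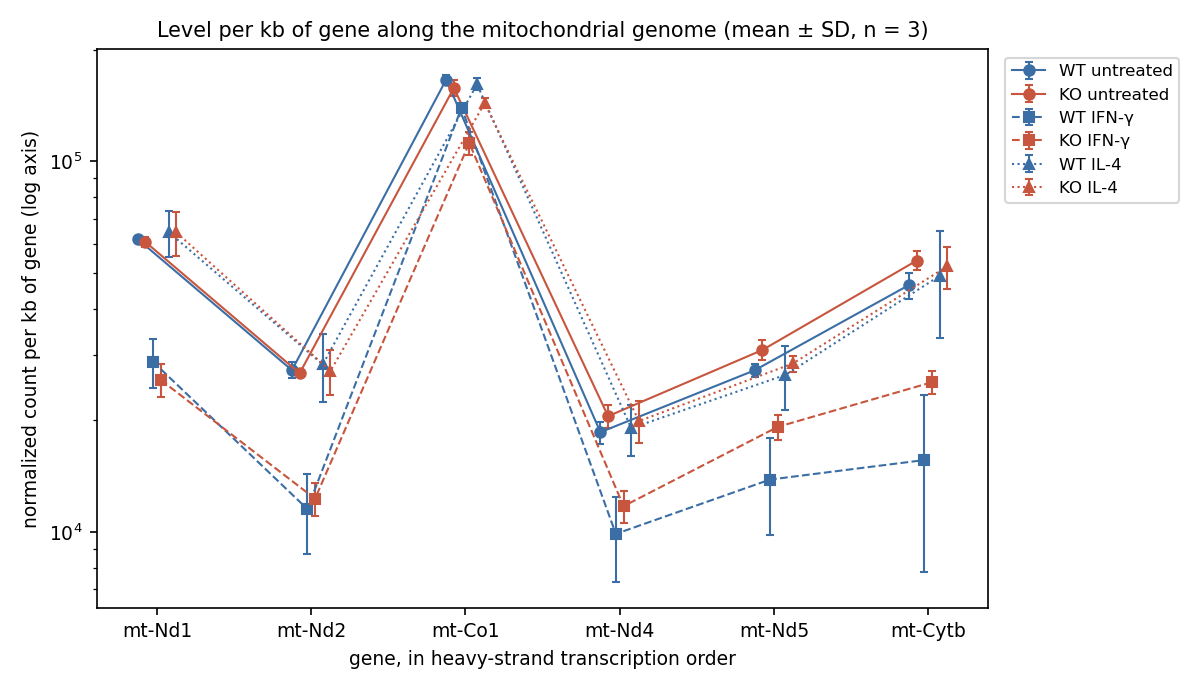
Level of each gene per kb of its full length on a log axis, in the order of the genes along their strand, for the 6 groups (mean ± SD, n = 3 animals; lines only join points of a group). mt-Co1 is highest in every group, and the IFN-gamma groups (squares) lie below the others at every gene, least at mt-Co1.

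IFN-gamma lowered all 6 transcripts in WT macrophages, and the 3 treated libraries lay below the 3 untreated ones for each gene. Over all genes tested, 31.1% were called lower and 62.4% were called in either direction (limma on log2 of the normalized count plus 1, adjusted p under 0.05), so calls were common in this comparison. Treated libraries lay below all untreated ones in 35.4% of all genes. The median log2 change of the 6 genes was -1.07, against -0.01 over all genes. In bulk RNA, fewer cells of a type and less RNA per cell cannot be told apart.

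Among the complex I genes, mt-Nd1, which encodes a membrane subunit near the quinone site, stood at 59906, 57922 and 59237 normalized counts in untreated WT cells and at 22716, 30426 and 29461 with IFN-gamma, replicates 1 to 3 in order. The treated mean was 46.7% of the untreated one, and the log2 change was -1.11 (SE 0.127, adjusted p = 6.21e-07). mt-Nd2, a membrane subunit of the proton-pumping arm, was at 27961, 27163 and 29935 untreated and at 8586, 13968 and 13338 treated. Its log2 change was -1.28 (SE 0.164, adjusted p = 2.59e-06), and replicate 1 was the lowest treated library in both genes, with no overlap between treated and untreated.

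The other complex I genes, also subunits of the proton-pumping arm, changed by a similar amount. For mt-Nd4, untreated WT libraries held 24037, 25275 and 27486 normalized counts, and treated ones 9535, 16018 and 15262, a log2 change of -0.95 (SE 0.162, adjusted p = 6.56e-05). For mt-Nd5, the values were 49603, 47765 and 51973 untreated and 16829, 30636 and 28264 treated, a log2 change of -1.03 (SE 0.171, adjusted p = 4.69e-05). The 4 complex I genes thus kept between 42.2% and 53.1% of their untreated means.

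mt-Cytb, the only subunit of complex III that mitochondria encode, fell most. Untreated WT libraries held 48239, 54244 and 56587 normalized counts, and treated ones 7738, 24775 and 21103. The log2 change was -1.73 (SE 0.306, adjusted p = 8.99e-05), and without replicate 1 of the treated group it was -1.21. Replicate 1 was the lowest treated library, and the other 2 were also far below every untreated one.

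mt-Co1 fell least. It stood at 260295, 247419 and 262503 normalized counts untreated and at 211001, 221804 and 214009 treated, so the treated cells kept 84% of the untreated mean (log2 change -0.25, SE 0.104, adjusted p = 0.0436). The groups did not overlap, so every animal was lower with IFN-gamma, by 0.30, 0.16 and 0.29 on the log2 scale in animals 1 to 3. The call did not hold when any 1 of the 6 libraries was left out (adjusted p between 0.062 and 0.103), nor when only these groups were fitted (0.0878), with a pseudocount of 5 (0.0549) or with no filter on low values (0.0547), so 5 of 6 genes were called there.

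Ldha KO macrophages showed the same 6 transcripts lower with IFN-gamma, with no overlap between treated and untreated libraries (27.5% of all genes were called lower and 55.8% in either direction, and 34.3% lay lower without overlap). The median log2 change was -0.95, against -0.01 over all genes. mt-Nd1 was at 59419, 56008 and 58558 normalized counts untreated and at 23926.5, 27355 and 22510.0 treated, a log2 change of -1.24 (SE 0.127, adjusted p = 1.92e-07). mt-Cytb was at 61692, 58105 and 65370.3 untreated and at 28747, 31191 and 27037 treated, a log2 change of -1.09 (SE 0.306, adjusted p = 0.00565). The KO libraries of this gene lay closer together than the WT ones, with an SD of 7.2% of the treated mean against 50.2%.

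mt-Co1 was again the least changed, from 238245, 236001 and 257324 normalized counts to 160929.8, 186051 and 172689, and kept 71% of the untreated mean (log2 change -0.49, SE 0.104, adjusted p = 0.000573). mt-Nd2 changed by -1.13 (adjusted p = 1.34e-05), mt-Nd4 by -0.81 (0.000373) and mt-Nd5 by -0.69 (0.00223). All 6 calls held when any 1 library was left out. No treated library overlapped an untreated one, so each animal's treated library lay below its own untreated one in all 6 genes, in both genotypes.

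**Figure D2:**
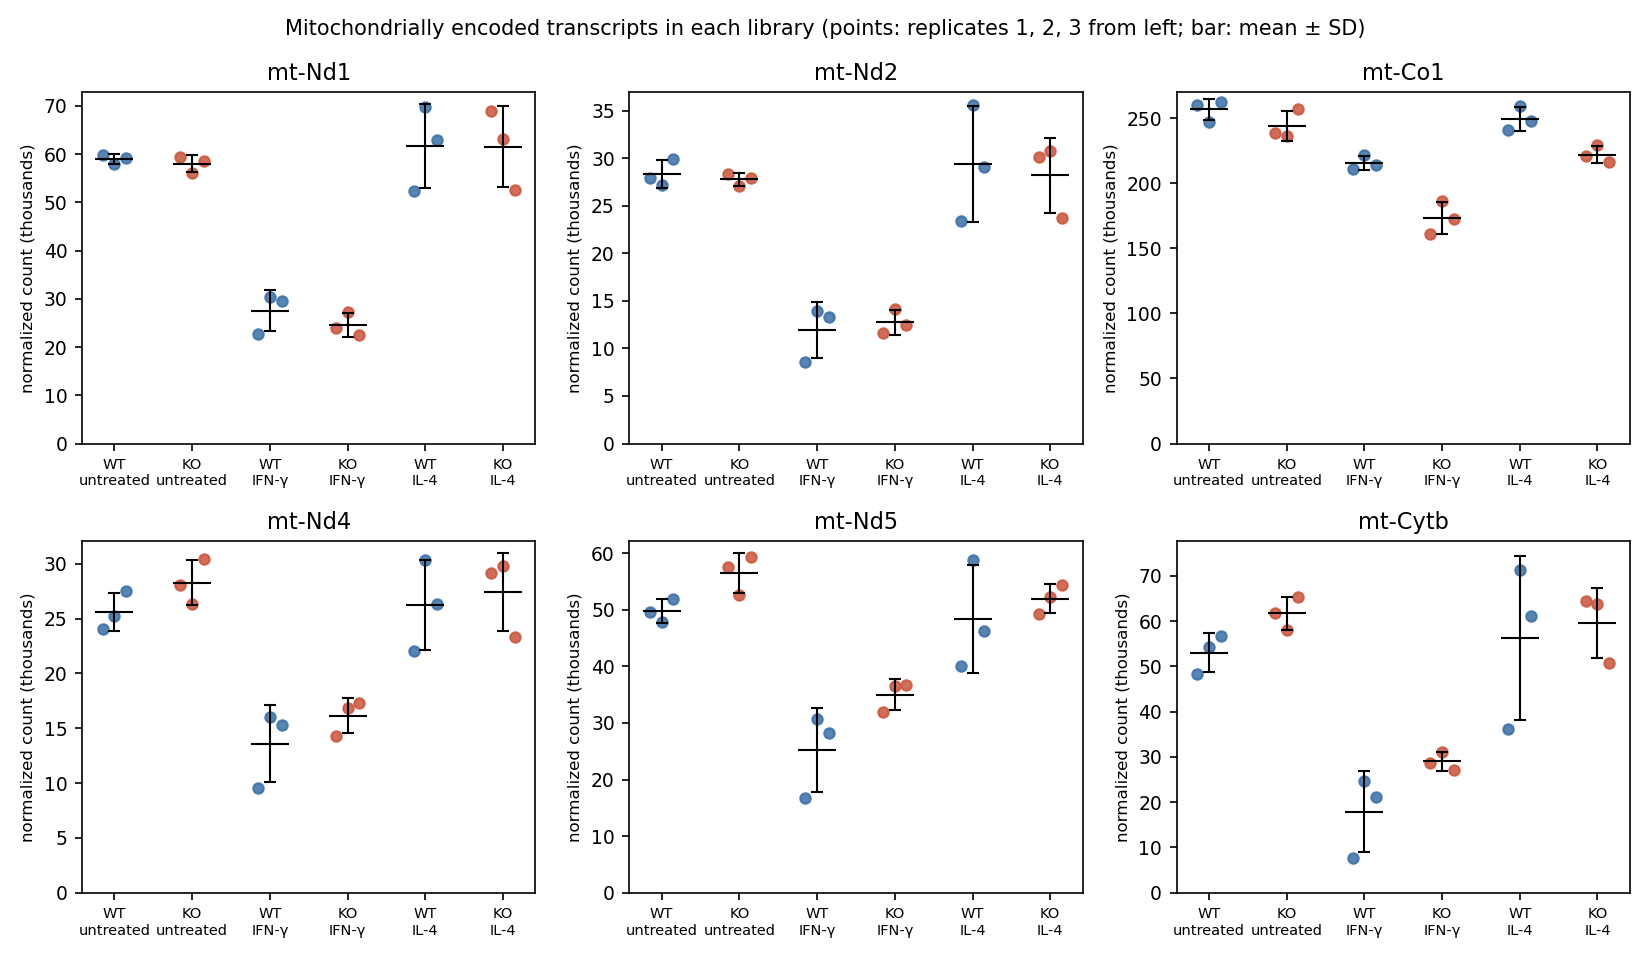
Normalized count of each of the 6 genes in each library, by genotype and treatment, on axes that start at 0. Points are animals 1, 2 and 3 from left and bars give the mean ± SD (n = 3); the IFN-gamma groups lie below the untreated groups in all 6 panels, and WT replicate 1 with IFN-gamma, at 7738 for mt-Cytb, lies below the other 2 points of its group.

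With IFN-gamma the genes also took different shares of their sum. The share of mt-Co1 went from 54.3% ± 0.901 to 69.5% ± 5.91 in WT and from 51.2% ± 0.77 to 59.6% ± 0.271 in KO cells (SD, n = 3), with no overlap in either genotype. The share of mt-Cytb went from 11.2% ± 0.836 to 5.57% ± 2.43 in WT and from 13% ± 0.193 to 9.98% ± 0.612 in KO cells. Per kb, mt-Cytb stood at 27.9% ± 2.51 of mt-Co1 in untreated WT cells and at 11.1% ± 5.41 with IFN-gamma. These shares were not tested, and they are free of the scaling between libraries. All rows of the mitochondrial genome in the table made up 2.03% ± 0.0795 of normalized counts in untreated WT cells, 1.1% ± 0.107 with IFN-gamma and 1.71% ± 0.21 with IL-4. In KO cells the figures were 2.09% ± 0.0981, 1.14% ± 0.221 and 1.73% ± 0.0853. With IFN-gamma, KO replicate 2, which was high in both rRNAs, stood at 1.381%. The 6 genes alone made up 1.69% ± 0.0604 in untreated WT cells and 0.905% ± 0.0957 with IFN-gamma. In KO cells they made up 1.74% ± 0.0638 and 0.834% ± 0.0638.

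Scaling matters here, since normalized counts summed to 28 ± 0.173 M (SD, n = 3) in untreated WT libraries and to 34.5 ± 0.354 M with IFN-gamma. With each library scaled to its reads outside the mitochondrial genome in place of the deposited scaling, the median of all genes moved to -0.32 in WT and -0.37 in KO cells, and the share of called genes that were higher went from 50.2% to 29.4% in WT and from 50.7% to 23.9% in KO. That scale moves every gene lower by a similar amount with IFN-gamma. The 6 genes, already lower, were thus again all called lower in both genotypes, with medians of -1.38 and -1.32.

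With IL-4, 0 of the 6 transcripts were called by the same limma test in WT cells, where 30.3% of all genes were called, or in KO cells, where 30.2% were. No member had an unadjusted p under 0.05 in either genotype. mt-Nd1 stood at 52353, 69728 and 63031 normalized counts in WT cells with IL-4, around the 57922 to 59906 of untreated cells. The log2 change was 0.05 with a 95% interval from -0.21 to 0.32. For mt-Co1 the WT change was -0.04 (-0.26 to 0.18) and the KO change -0.13 (-0.35 to 0.08), although the KO libraries with IL-4, at 220873, 229001 and 216092 normalized counts, lay below the untreated ones, as did 23.3% of all genes. mt-Cytb, the most variable gene, had the widest intervals, from -0.62 to 0.67 in WT and from -0.70 to 0.59 in KO cells. Changes of the size seen with IFN-gamma lay outside the IL-4 intervals for every gene except mt-Co1 in WT. On the scale of reads outside the mitochondrial genome, the median of all genes moved to -0.18 in WT and -0.14 in KO cells with IL-4, and the share of called genes that were higher fell from 53.8% to 27.2% and from 52.2% to 29.4%. On that scale, mt-Co1 was called lower in KO cells (log2 change -0.28, adjusted p = 0.0419).

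**Figure D3:**
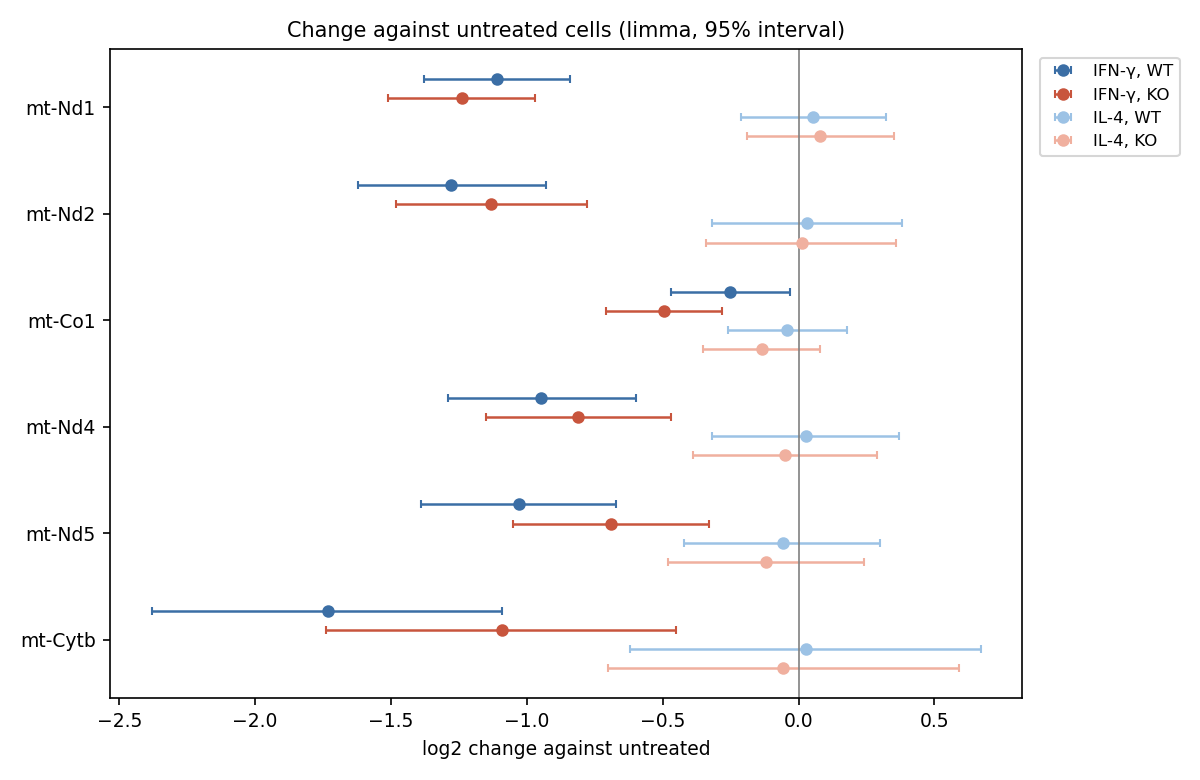
Log2 change of each gene against untreated cells of the same genotype, with 95% intervals from limma, for IFN-gamma and IL-4 in WT and KO cells (n = 3 animals per group). The IFN-gamma intervals all lie below 0, from -2.38 to -0.03 in WT, and the IL-4 intervals all include 0.

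Set directly against IL-4, IFN-gamma gave lower levels of 5 of 6 genes in WT cells (29.7% of all genes called lower, 60.5% in either direction) and of 6 of 6 in KO cells (27.4% and 55%). These comparisons share the IFN-gamma libraries with those above. The exception was mt-Co1 in WT cells, with a log2 difference of -0.21 (SE 0.104, adjusted p = 0.0904). It was called, which made 6 of 6, on the scale of reads outside the mitochondrial genome (-0.36, adjusted p = 0.00596), by edgeR (-0.22, 0.0311) and by DESeq2 (-0.21, 0.00181). It was called in KO cells, at -0.36 (adjusted p = 0.00705). mt-Cytb differed by -1.76 in WT (adjusted p = 8.12e-05) and by -1.03 in KO cells (0.00823).

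The genotypes were compared within each treatment to ask whether loss of Ldha moves these transcripts. In untreated cells none of the 6 genes was called (1.98% of all genes were). The log2 differences of KO against WT ran from -0.07 for mt-Co1 to 0.22 for mt-Cytb, and 95% intervals reached from -0.42 to 0.87. Values of mt-Nd5 were 57555, 52579 and 59279 normalized counts in KO and 49603, 47765 and 51973 in WT cells, so the groups did not overlap, but the difference of 0.18 was not called (adjusted p = 0.803). mt-Cytb did not overlap either, at 61692, 58105 and 65370.3 in KO and 48239, 54244 and 56587 in WT cells (0.22, adjusted p = 0.892). Of all genes, 30.1% did not overlap there. With IL-4 none was called either (6.59% of all genes were), and differences ran from -0.17 for mt-Co1 to 0.14 for mt-Cytb, with intervals from -0.51 to 0.78. mt-Co1, at 220873, 229001 and 216092 in KO and 241254.5, 259620 and 247609 in WT cells, was the only one of the 6 without overlap (adjusted p = 0.364), and 20.1% of all genes did not overlap.

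With IFN-gamma, 3 of 6 genes were called between genotypes, against 27.9% of all genes, 2 of them higher in KO (14.3% of all genes) and 1 lower (13.6%). mt-Co1 was lower in KO, at 160929.8, 186051 and 172689 normalized counts against 211001, 221804 and 214009 in WT cells, a log2 difference of -0.32 (SE 0.104, adjusted p = 0.0302). mt-Nd5 was higher in KO, at 31917, 36490.1 and 36654 against 16829, 30636 and 28264 in WT, a log2 difference of 0.52 (SE 0.171, adjusted p = 0.0314). mt-Cytb was also higher, at 28747, 31191 and 27037 against 7738, 24775 and 21103, a log2 difference of 0.86 (SE 0.306, adjusted p = 0.0443). No KO library overlapped a WT library in these 3 genes, and 42.6% of all genes did not overlap either. mt-Nd1 (-0.16, adjusted p = 0.397), mt-Nd2 (0.12, 0.637) and mt-Nd4 (0.28, 0.216) overlapped between genotypes.

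These 3 calls were fragile. With WT replicate 1 left out none was called, the difference of mt-Cytb was 0.34 (adjusted p = 0.253), that of mt-Nd5 was 0.25 (0.179) and that of mt-Co1 was -0.33 (0.0503). Leaving out KO replicate 3 also left 0 calls, KO replicate 1 or 2 left 1 each, and WT replicate 2 or 3 left 2 each. A fit of these 2 groups alone called 0 of 6. By edgeR and by DESeq2 on the recovered reads, 2 genes were called, mt-Co1 and mt-Nd5. The sign of each of the 3 differences was the same in all these settings.

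**Figure D4:**
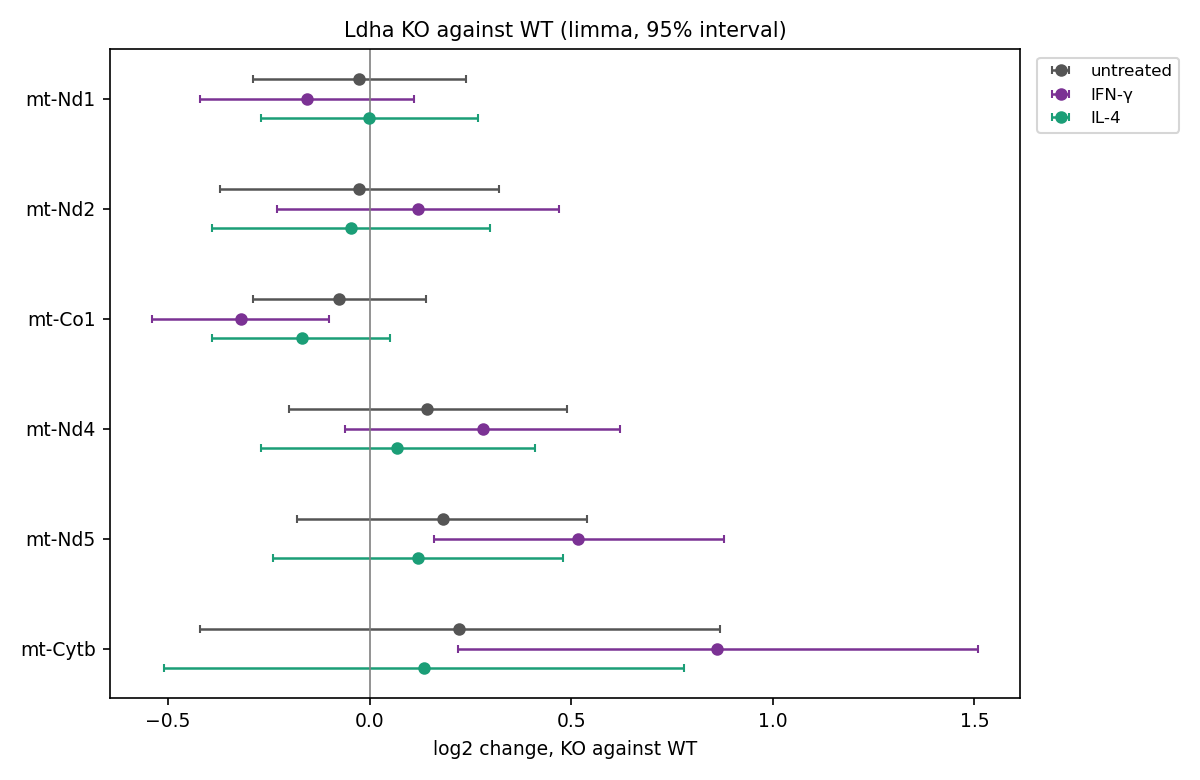
Log2 difference of KO against WT for each gene in untreated, IFN-gamma and IL-4 cells, with 95% intervals from limma (n = 3 animals per group). With IFN-gamma the intervals of mt-Co1 (-0.54 to -0.10), mt-Nd5 (0.16 to 0.88) and mt-Cytb (0.22 to 1.51) exclude 0, and in the other treatments all intervals include 0.

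Whether the response itself differed between genotypes was tested as an interaction. For IFN-gamma, 0 of 6 genes were called (9.15% of all genes were), and none had an unadjusted p under 0.05. The response of mt-Cytb was 0.64 higher in KO than in WT cells on the log2 scale, with a 95% interval from -0.27 to 1.55 (adjusted p = 0.4), and that of mt-Co1 was lower, at -0.24 (-0.55 to 0.07, adjusted p = 0.341). For IL-4, 0 of 6 were called (0.007% of all genes, that is 1 gene). Over the mean of the 3 treatments in each animal, 0 of 6 differed between 3 KO and 3 WT animals (11.3% of all genes did), and mt-Nd5 alone had an unadjusted p under 0.05, with a difference of 0.27 (SE 0.112, adjusted p = 0.149).

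Markers of other cell types moved with some of these groups. The summed normalized counts of the stromal list (6 of 7 genes in the table, Dcn at 0 in 3 libraries) ran from 167.6 to 419.5 in untreated WT and from 372.3 to 1353 in untreated KO cells, and from 137.5 to 241.2 in WT and 209.6 to 788.0 in KO cells with IFN-gamma. The dendritic list (3 of 5 genes in the table) went from 3.9 to 6.59 in untreated WT libraries up to 741.5 to 1004 with IFN-gamma, and from 10.6 to 24.3 up to 379.2 to 516.1 in KO. The neutrophil list (3 of 7) was at 0.982 to 4.72 in WT and at 29.4 to 63.5 in KO cells with IFN-gamma. The B cell list (3 of 5) was at 7.89 to 13 in WT and at 20.2 to 29.6 in KO cells with IFN-gamma. The megakaryocyte list (4 of 4) went from 218.3 to 247.5 in untreated WT libraries up to 448.9 to 586.9 with IL-4, and from 210.5 to 312.3 up to 360.3 to 757.9 in KO. The T and NK, erythroid and mast cell lists stayed at no more than 15.1 in any library. A single gene can carry such a sum. In the dendritic list, the highest value in any library was 958.7 for Xcr1, 329.0 for Ccr7 and 69.8 for Zbtb46. In the neutrophil list it was 59.1 for S100a8, 3.54 for Camp and 1.82 for Ngp. In the B cell list it was 60.6 for Cd79b, 11.3 for Ms4a1 and 5.46 for Cd79a, and Pf4, at up to 753.9, led the megakaryocyte list. The part of these cell types in the results was not tested. All these sums were far below that of the macrophage list.

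Of the other rows of the mitochondrial genome, 5 passed the filter on low values: both rRNAs, mt-Nd6, and the tRNA genes mt-Tc and mt-Tp. With no strand setting known, the rows of mt-Nd6, mt-Tc and mt-Tp may hold reads of either strand. mt-Nd6, on the opposite strand, was at 15270.3, 16228 and 16440.5 normalized counts in untreated WT cells and at 6088, 9802 and 9231 with IFN-gamma (log2 change -0.96, SE 0.208, adjusted p = 0.000619). In KO cells it changed by -0.70 (adjusted p = 0.00807), and with IL-4 by -0.05 in WT and 0.09 in KO, neither called. Libraries with IFN-gamma did not overlap the untreated ones in either genotype, and those with IL-4 did in both. In the rows of the tRNA genes, also on the opposite strand, WT means of mt-Tc were 542.9 normalized counts untreated and 299.9 with IFN-gamma. For mt-Tp they were 20.61 and 9.031, so its changes rest on few reads. Whether the reads in these rows came from mature tRNAs or from precursors was not measured. Both rows were lower in WT cells with IFN-gamma, mt-Tc by -0.90 (adjusted p = 0.000898) and mt-Tp by -1.10 (0.0158). Neither was called in KO cells (-0.39 and -0.49). Scaled to reads outside the mitochondrial genome, mt-Tc was called in KO cells too (-0.75, adjusted p = 0.00298), and mt-Tp was at -0.83 (0.0568). With IL-4, mt-Tc was also lower in WT cells (-0.71, adjusted p = 0.0124), mt-Tp was at -0.77 (0.129), and IFN-gamma against IL-4 gave -0.19 (0.442) and -0.33 (0.455) in WT.

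The rRNAs mt-Rnr1 and mt-Rnr2, which stand before mt-Nd1 on the same strand, were not called with IFN-gamma in either genotype. mt-Rnr2 was at 47009, 67844 and 60863 normalized counts in untreated WT cells and at 40441, 47574 and 42462 with IFN-gamma, which overlap (log2 change -0.42, adjusted p = 0.215). mt-Rnr1 changed by -0.58 in WT (adjusted p = 0.158). In KO cells the changes were 0.04 for mt-Rnr1 (adjusted p = 0.937) and 0.21 for mt-Rnr2 (0.545), and they were -0.51 (adjusted p = 0.119) and -0.21 (0.455) without KO replicate 2, which held 47999 and 109639.9 normalized counts of these rRNAs. On the scale of reads outside the mitochondrial genome both were called lower in WT (-0.89 and -0.73) and neither in KO (-0.33 and -0.15). With IL-4, mt-Rnr1 was lower in WT cells (-1.01, adjusted p = 0.0354) and was not called in KO cells (-0.83, 0.0802), where the scale of reads outside the mitochondrial genome gave a call (-0.98, 0.0355). In KO cells both rRNAs were called higher with IFN-gamma than with IL-4, mt-Rnr1 by 0.87 (adjusted p = 0.0417) and mt-Rnr2 by 0.70 (0.0466). Neither was called in WT (0.43 and 0.24). Both KO calls were lost without KO replicate 2 with IFN-gamma (0.33 and 0.27). They were also lost on the scale of reads outside the mitochondrial genome (0.65 and 0.48). rRNAs carry short tails, so poly(A)-selected libraries catch them in part, and that part was not measured.

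Most nuclear-encoded subunits of the respiratory chain were higher or not called where the mitochondrial ones fell, on the deposited scaling. Of 76 genes, all tested, 33 were called higher and 3 lower with IFN-gamma in WT cells, with a median log2 change of 0.21, and 27 higher and 4 lower in KO cells, with a median of 0.17. Over all genes, 31.4% were called higher in WT and 28.3% in KO cells. Examples in WT are Ndufs4 of complex I (1.00, adjusted p = 4.4e-07), Sdhb of complex II (0.71, 9.34e-07), Cyc1 of complex III (0.67, 6.33e-06), Cox6a1 of complex IV (0.89, 1.83e-05) and Atp5b of the ATP synthase (0.66, 6.27e-06). The lowest was Ndufb11 of complex I, at -0.55. These signs depend on the scaling, since on the scale of reads outside the mitochondrial genome 14 were higher and 19 lower in WT (median -0.10), and 6 higher and 30 lower in KO (median -0.19). Most called genes over all were lower on that scale too. The median of the 6 mitochondrial genes was below that of the 76 nuclear ones. The change of scale shifts all genes by nearly the same log2 amount, so it cannot alter this gap. In WT cells every one of the 76 lay above 5 of the 6, all but mt-Co1 (lowest -0.55). In KO cells the same held, but narrowly, with Atpif1 at -0.67 and mt-Nd5 at -0.69 on the deposited scaling. Atpif1 is an inhibitor of the ATP synthase that was listed with its subunits.

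Within complex IV the contrast was between mt-Co1, at -0.25 in WT and -0.49 in KO cells with IFN-gamma, and its 11 nuclear partners, of which 7 rose and 0 fell in WT and 6 rose and 1 fell in KO. Within complex III, mt-Cytb changed by -1.73 and -1.09, while 4 of 9 nuclear subunits rose and 1 fell in WT, and 4 rose and 0 fell in KO. On the scale of reads outside the mitochondrial genome, where most called genes over all were lower, these counts turned. They were 4 higher and 1 lower in WT and 1 and 2 in KO for complex IV, and 3 and 2 in WT and 1 and 5 in KO for complex III. With IL-4, 41 of 76 nuclear subunits were called higher in WT and 53 in KO cells and 0 lower in both, with medians of 0.36 and 0.44 (16.3% and 15.8% of all genes were called higher), while none of the 6 mitochondrial genes was called. Without the shallow WT replicate 2 the WT count was 23, and on the scale of reads outside the mitochondrial genome it was 15 higher and 1 lower, with 31 higher and 0 lower in KO. Between genotypes, 0 of 76 were called untreated (1.98% of all genes were) or with IL-4 (6.59%). With IFN-gamma 2 were called, Ndufs4 and Ndufa6, both lower in KO, against 27.9% of all genes in either direction and 13.6% lower. With WT replicate 1 left out, 0 were called with IFN-gamma, and with IL-4 4 were higher in KO without WT replicate 2 or on the other scale.

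**Figure D5:**
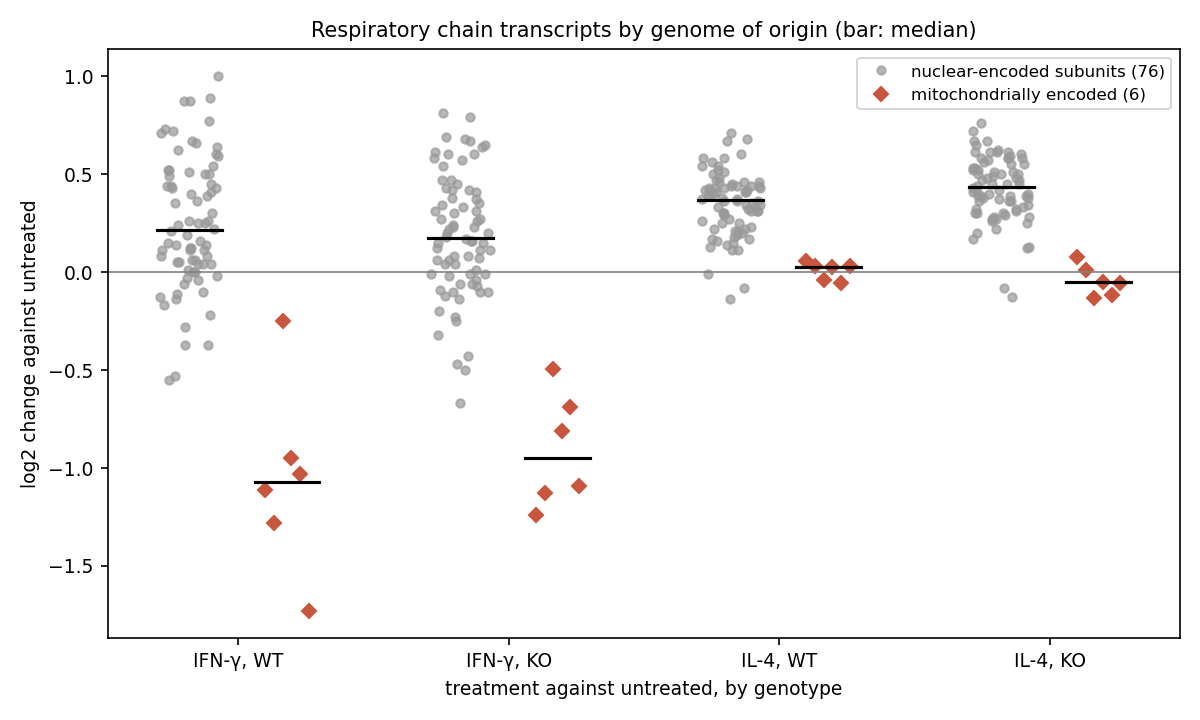
Log2 change against untreated cells of the 76 nuclear-encoded subunits (grey points, spread sideways for view) and of the 6 mitochondrially encoded ones (diamonds), by treatment and genotype; bars mark medians. With IFN-gamma the medians are 0.21 and -1.07 in WT, and with IL-4 0.36 and 0.03, on the deposited scaling. The nuclear medians with IFN-gamma turn to -0.10 in WT and -0.19 in KO when scaled to reads outside the mitochondrial genome. On that scale the mitochondrial medians move down alike.

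Genes that make and handle mitochondrial RNA moved in both directions with IFN-gamma. Of 9 tested genes of mitochondrial transcription, 2 rose and 2 fell in WT, and 0 rose and 2 fell in KO cells. The shares of all genes called higher and lower were 31.4% and 31.1% in WT, and 28.3% and 27.5% in KO. Tfb2m, a factor needed to start transcription at mitochondrial promoters, fell from 159.6 ± 21.7 to 77.46 ± 15.4 normalized counts in WT (SD, n = 3; log2 change -1.04, adjusted p = 0.000134) and by 0.57 on the log2 scale in KO cells (0.0169). Polrmt, the mitochondrial RNA polymerase, fell by 0.32 in WT (adjusted p = 0.00757). Tefm, an elongation factor, rose by 0.47 in WT (0.00236). On the scale of reads outside the mitochondrial genome 0 of 9 rose and 6 fell in each genotype. Most called genes over all were lower on that scale too.

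Among 21 genes of mitochondrial RNA processing and decay, 5 rose and 7 fell in WT and 5 rose and 3 fell in KO cells. The shares of all genes called in either direction were 62.4% in WT and 55.8% in KO. Lrpprc, which stabilises mitochondrial mRNAs and takes part in their polyadenylation, fell from 2369 ± 111.5 to 1022 ± 286.8 normalized counts in WT (log2 change -1.26, adjusted p = 8.1e-07) and by 0.57 on the log2 scale in KO cells (0.003). Fastkd2, an RNA-binding protein of mitochondrial granules, fell by 1.00 in WT (3.79e-06). The IFN-gamma response was called different between genotypes for 3 of the 21, against 9.15% of all genes. Lrpprc (0.68, adjusted p = 0.0478) and Fastkd2 (0.70, 0.0264) were higher in KO than in WT, and Mtpap, the mitochondrial poly(A) polymerase, was lower (-0.45, 0.0292). Each of these 3 calls was lost without some single library, with adjusted p up to 0.111, 0.0772 and 0.0785, and without WT replicate 1 with IFN-gamma the differences were 0.42 (0.0297), 0.53 (0.0451) and -0.41 (0.0546). With all libraries kept, the Lrpprc call was also lost with no filter on low values (adjusted p = 0.0555) and in a fit of only the groups compared (0.0632). It was lost on the scale of reads outside the mitochondrial genome as well (0.0726), and the calls of Fastkd2 and Mtpap held in these settings. Pnpt1, the mitochondrial polynucleotide phosphorylase that degrades RNA, rose by 0.96 in WT (4.04e-07) and by 0.81 in KO cells (3.53e-06). On the scale of reads outside the mitochondrial genome, where most called genes over all were lower, 3 of the 21 rose and 15 fell in WT. In KO, 4 rose and 15 fell. On the deposited scaling, 31.4% of all genes were called higher in WT and 28.3% in KO cells. Of 7 tested regulators of mitochondrial biogenesis, 4 rose and 0 fell in both genotypes. Ppargc1b, a coactivator of mitochondrial genes, rose most, from 94.17 ± 18 to 555.6 ± 27.2 normalized counts in WT (log2 change 2.56, adjusted p = 7.07e-11). On the scale of reads outside the mitochondrial genome 4 rose and 3 fell in WT, and 2 rose and 2 fell in KO.

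Across the 18 libraries, the 6 genes moved together to different degrees, given here as descriptions over libraries that share treatments. Pearson's r of log2 values between pairs ran from 0.54 (mt-Co1 with mt-Nd5 and with mt-Cytb) to 0.98 (mt-Nd1 with mt-Nd2, mt-Nd5 with mt-Cytb). After group means were taken out, r ran from 0.41 (mt-Co1 with mt-Cytb) to 0.95 (mt-Nd2 with mt-Nd4). mt-Co1 had the lowest values with each of the others, from 0.41 to 0.61. The mean log2 level of the 6 genes was most like that of Mthfd1 (r = 0.981), Wdr77 (0.978), Hadh (0.977), Mettl8 (0.975) and 2810004N23Rik (0.972), among 10046 nuclear genes with a mean of at least 100 normalized counts. With group means taken out, the most alike were Mettl8 (0.944), Nqo2 (0.930), Idh3a (0.929), Rrp15 (0.926) and Polr3d (0.926).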

How the data were processed

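RNA sequencing of 18 libraries was analysed from the deposited table. The submitters' processing notes name STAR 2.5, HTSeq 0.6, DESeq2, edgeR and GRCm38, with no role for each. The deposited signal is in normalized counts, read counts that the authors divided by 1 size factor per library. Each value was a whole multiple of its library's step (100% within 0.1 read), which recovered the reads. Library kits were directional with poly(A) selection, per the labels.

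Genes with at least 10 normalized counts in at least 3 libraries (14288 of 21380) were fitted as log2 of the normalized count plus 1 with limma 3.58.1 (R 4.3.3, trend, 6 group means, 12 residual degrees of freedom, two-sided tests), with p-values adjusted after Benjamini-Hochberg across the genes tested and called under 0.05. KO against WT over animal means was a separate fit with 4 degrees of freedom. The code was tested on simulated data. Alternatives were other pseudocounts, no filter, other scalings, edgeR 4.0.16 and DESeq2 1.42.0 on recovered reads, an animal block and leaving out each library. Lists scaled otherwise or without 1 library, and all settings for the response difference of 3 named genes, were added after the data were seen. The members and gene lists were chosen with earlier results of these data known. Genes named are the members, the other rows of the mitochondrial genome, Ldha and Lyz2, cell type markers, some of up to 3 called genes per list, direction and comparison with the smallest adjusted p, and the 5 genes most alike by each measure.

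The 3 libraries of an animal carry the same animal code in the labels, which pairs treatments. Their deviations from group means correlated with r from 0.00 to 0.24 over 18 pairs, 13 of them above 0.1. Replicates of a group are separate animals. Nuclear copies were found with blastn 2.17.0 in GENCODE M21 transcripts.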

Additional observations from a re-analysis of the deposited data

How the results depend on the processing

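With IFN-gamma against untreated cells, 5 or 6 of 6 genes were called in WT and 6 in KO cells under all alternatives run. The blocked fits (replicate block: the animal for treatments, the replicate number between genotypes) changed no member's call, and KO against WT with IFN-gamma stayed at 3 of 6 genes. KO against WT with IFN-gamma was called for 0 of 6 genes in a fit of these groups only and for 0 to 2 without 1 library. IL-4 in KO cells gave 1 of 6 when scaled to reads outside the mitochondrial genome. Over 72 results of a member in a comparison and 1146 alternative values, signs turned in 42 without 1 library and in 13 otherwise, all between values that were not called.

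Scaled to reads outside the mitochondrial genome, log2 values turned for KO against WT in mt-Nd1 and mt-Nd2 untreated (0.011, 0.0099) and with IL-4 (0.053, 0.0082). With IL-4 against untreated they turned in WT mt-Nd1, mt-Nd2, mt-Nd4 and mt-Cytb (-0.11, -0.13, -0.14, -0.14) and in KO mt-Nd1 and mt-Nd2 (-0.07, -0.14). By TMM factors mt-Nd1 turned to 0.00023 for KO against WT with IL-4. For animal means mt-Nd1 turned to 0.0087 by edgeR and 0.0066 by DESeq2.

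Without 1 library, the ranges that crossed 0 were as follows. For KO against WT, mt-Nd2 ran from -0.057 to 0.013 untreated. Under IFN-gamma its range was -0.10 to 0.25, and over animal means -0.11 to 0.10. With IL-4 it ran from -0.20 to 0.10, mt-Nd1 from -0.12 to 0.11, mt-Nd4 from -0.052 to 0.18, mt-Nd5 from -0.0071 to 0.27 and mt-Cytb from -0.15 to 0.34. For IL-4 against untreated in WT, mt-Nd1 ran from -0.039 to 0.17, mt-Nd2 from -0.12 to 0.19, mt-Nd4 from -0.084 to 0.15, mt-Nd5 from -0.21 to 0.069 and mt-Cytb from -0.17 to 0.32. In KO, mt-Nd1 ran from -0.0092 to 0.19, mt-Nd2 from -0.057 to 0.13, mt-Nd4 from -0.11 to 0.062 and mt-Cytb from -0.12 to 0.056. For the IFN-gamma interaction, mt-Nd2 ran from -0.076 to 0.27 and mt-Nd4 from -0.10 to 0.27. For that of IL-4, mt-Nd1 ran from -0.09 to 0.13, mt-Nd2 from -0.17 to 0.13, mt-Nd4 from -0.20 to 0.036, mt-Nd5 from -0.19 to 0.089 and mt-Cytb from -0.38 to 0.12. The cause was not tested.

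Counts over all genes differed by more than 1.5 times from the reported fit for KO against WT untreated (283, against 608 by DESeq2 and 971 in the groups alone), with IL-4 (941, against 128 in the groups alone) and over animal means (1618, against 869 by edgeR and 1031 with the block). They also did for the interactions of IFN-gamma (1307, against 2073 with the block) and IL-4 (1, against 21 by DESeq2, 12 with the block, 3 with a pseudocount of 5 and 2 without the filter).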

Other observations

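Mitochondrial membrane and matrix proteins encoded in the nucleus moved in both directions with IFN-gamma. Of 14, 6 were higher and 5 lower in WT, and 8 higher and 4 lower in KO cells. The shares of all genes called higher and lower were 31.4% and 31.1% in WT, and 28.3% and 27.5% in KO. Scaled to reads outside the mitochondrial genome, where most called genes over all were lower, 4 of the 14 were higher and 7 lower in WT. In KO, 3 were higher and 6 lower. Cs, citrate synthase of the matrix, rose from 6818 ± 212 to 10342 ± 259.9 normalized counts in WT cells (SD, n = 3; log2 change 0.60, adjusted p = 5.6e-08 by limma), and Hspa9, the matrix Hsp70 chaperone, rose by 0.62 (2.97e-06). Tomm20, an import receptor of the outer membrane, fell from 1771 ± 43.2 to 1088 ± 84.6 (log2 change -0.71, adjusted p = 1.17e-06), and Hspd1, the matrix chaperonin, fell by 0.79 (2.11e-06). With IL-4, 5 of 14 rose in WT and 11 in KO cells, and 0 fell in both (2 and 7 rose on the other scale). The shares of all genes called higher with IL-4 were 16.3% in WT and 15.8% in KO on the deposited scaling.

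With IFN-gamma, 31.4% of all genes were called higher and 31.1% lower in WT, and 28.3% and 27.5% in KO cells. Of 12 genes of mitochondrial DNA maintenance, 2 rose and 5 fell in WT, and 1 rose and 5 fell in KO cells. Scaled to reads outside the mitochondrial genome, where most called genes over all were lower, 1 rose and 9 fell in WT, and 0 rose and 9 fell in KO. Ssbp1, the single-strand binding protein of mitochondrial DNA, fell by 0.44 in WT (adjusted p = 0.000738) and by 0.47 in KO cells (0.000454), and rose with IL-4, by 0.39 (0.00493) and 0.50 (0.000553). Tk2, a mitochondrial thymidine kinase, was lower in KO than in WT cells in each treatment, with log2 differences of -0.40 untreated (0.00963), -0.75 with IFN-gamma (2.43e-06) and -0.66 with IL-4 (6.38e-05).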
